A study of Kluyveromyces lactis with 6 samples.

Results

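The *Kluyveromyces lactis* genes described here were well expressed in wild type and at least 2-fold lower in both *sir2* deletion isolates. They number 65 of 5076 genes in all. They were chosen by the mean of the 2 libraries of each strain in FPKM, a level per length of gene and per size of library. A member had a WT mean of at least 100 and under 1500 FPKM and a log2 ratio to WT, with 1 FPKM added to each side, of -1 or less in each isolate. The first and last 30 genes of each chromosome and 7 genes named in the rule were left out, so the members lie inside the chromosomes. Before these exclusions 74 genes met the values. Of 1472 internal genes in that WT range, 4.42% were members. Each member's fall against WT is what chose it, so it is given as a description with no test.

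*SIR2* codes for a deacetylase that removes acetyl groups from histones, using NAD+, and keeps chromatin silent. RNA-seq was run on 6 libraries of 3 strains, each grown at 30 °C in rich YPD medium, which holds glucose, to the early log phase. Strain LRY2835 is the wild type (WT), and LRY2849 and LRY2850 are isolates 1 and 2 of the deletion (sir2Δ). All 3 are *MATa* and lack both *HMR* and *HML*. The 2 libraries of a strain are technical replicates by the design text, and WT is 1 culture, so genotype and culture cannot be told apart in any comparison with WT.

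Ribosomes are assembled in the nucleolus, where assembly factors fold, cut and modify the ribosomal RNA made by RNA polymerase I, and the small (40S) and large (60S) subunits are then exported. Growing yeast spends much of its transcription on this work, and genes for assembly factors are known to move together with growth. Ergosterol, the yeast membrane sterol, is made from acetyl-CoA through mevalonate and squalene, and several of its later steps and a step of heme synthesis consume molecular oxygen. Roles given below are those of the *Saccharomyces cerevisiae* genes of the same name.

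*SIR2* (KLLA0F14663g) stood at 66.9 and 64.9 FPKM in WT and between 0.0504 and 0.108 in the sir2Δ libraries. FPKM summed to between 1542502 and 1803539 per library, which is no depth, and the number of reads behind a value is unknown. The members' share of that sum was 1.27% and 1.28% in WT, 0.486% in both isolate 1 libraries and 0.445% and 0.415% in isolate 2. Their own FPKM summed to 7501 and 7747 in isolate 1 and to 7412 and 7489 in isolate 2. The lower share in isolate 2 therefore came mostly with its larger library sums, 1667000 and 1804000 against 1543000 and 1594000. All 7 sporulation markers examined were above both WT libraries in every sir2Δ library, with summed levels of 52.5 to 62.9 FPKM in WT and 309 to 361 in sir2Δ. Of the markers listed, 5 of 6 for a cells and 2 of 4 for alpha cells were matched by symbol. Among the 5 a-cell markers 4 were above WT in every sir2Δ library and 1, *STE2*, below, with sums of 32.8 to 34.0 and 231 to 279. Most of that sum in sir2Δ was *AGA2*, at 2.2 and 3.8 FPKM in WT and 182 to 222 in sir2Δ. The alpha-cell markers *STE3* and *SAG1* were not at 0 in these *MATa* strains and summed to 45.3 to 47.5 in WT and 49.4 to 61.8 in sir2Δ. *STE3* averaged 32.6 FPKM in WT, above each of the 5 a-cell markers, of which *STE2* was the highest at 14.1. The part of these markers in the values below was not tested.

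By role, 16 of the 65 genes act in ribosome assembly, 5 in RNA polymerases or other nucleolar work and 3 in translation. Sterol and heme synthesis hold 6, fatty acids and phospholipids 3, transport 4, and the cell wall, secretion and proteolysis 6. Sugar, nucleotide and amino acid metabolism hold 3, signalling, chromatin and transcription 5, and 14 have no symbol. The median member had 221 FPKM in WT, against 58.6 over all genes, and was left at 41.6% of WT in isolate 1 and 37.7% in isolate 2. Taking the mean of the isolates on the log2 scale, 4 members kept under 25% of the WT level and 32 kept 40 to under 50%, with the rest between. In all 65 the highest sir2Δ library lay under the lower WT library, which the rule comes close to requiring.

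**Figure D1:**
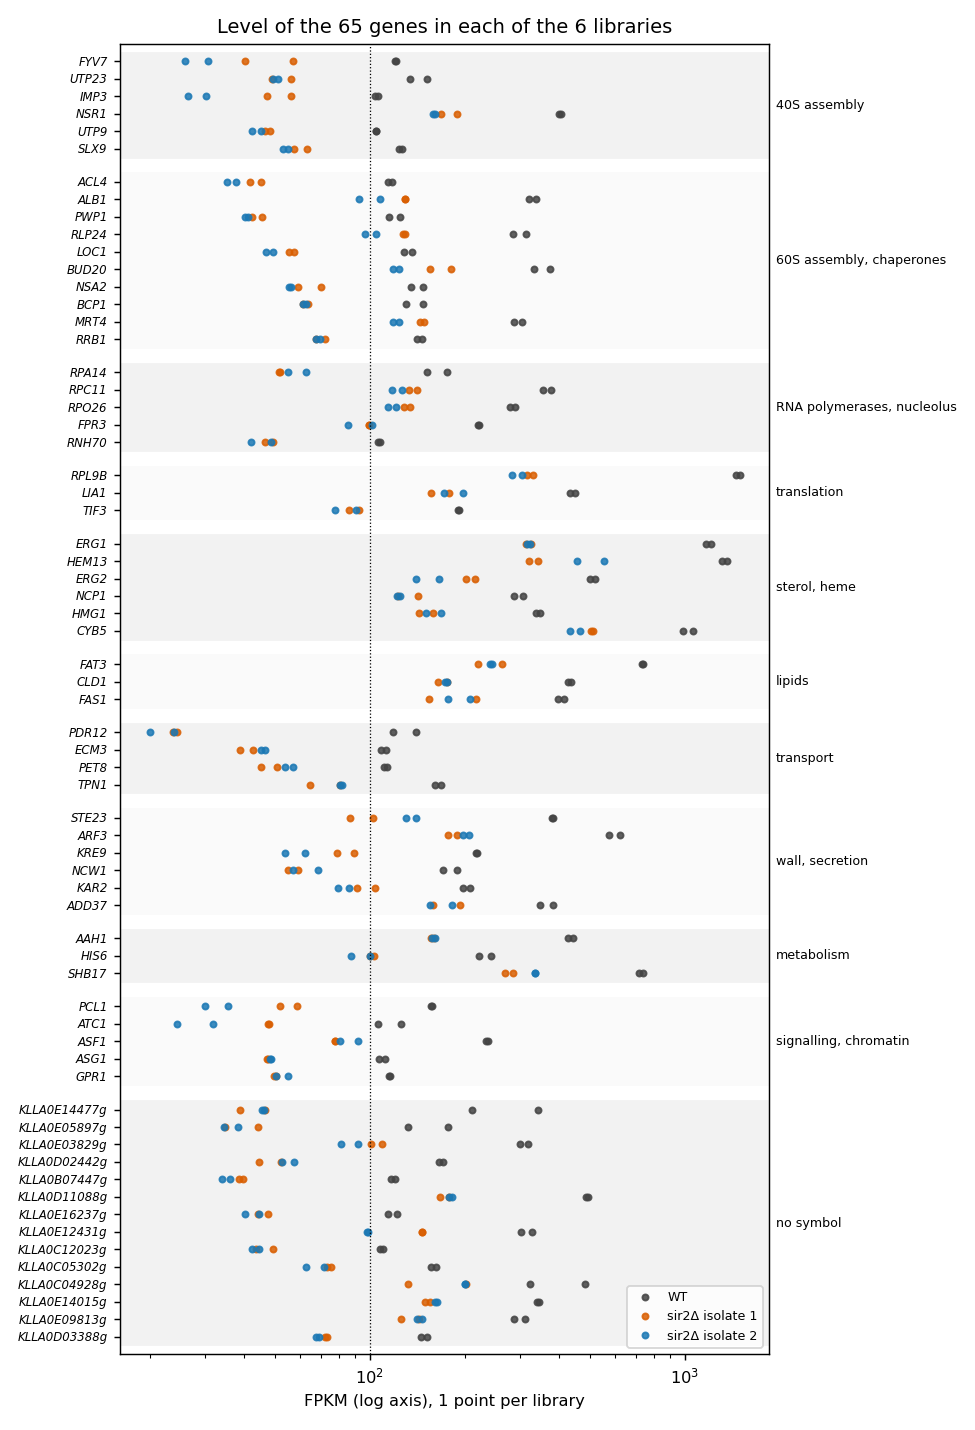
FPKM of each of the 65 genes on a log axis, 1 point per library (2 WT, 2 of sir2Δ isolate 1, 2 of isolate 2), genes grouped by role. WT points lie to the right of every sir2Δ point in all 65 rows, and the isolates lie apart for *IMP3*, *FYV7*, *PCL1*, *ATC1* and *HEM13*.

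The 40S group has 6 members: *IMP3* (KLLA0E15995g), *FYV7* (KLLA0D05445g), *UTP23* (KLLA0D01023g), *UTP9* (KLLA0B04180g), *SLX9* (KLLA0C15565g) and *NSR1* (KLLA0C11495g). *FYV7*, an rRNA processing factor, had the largest fall of the group, from 120.2 and 121 FPKM in WT to 57.2 and 40.3 in isolate 1 and 25.9 and 30.7 in isolate 2. *UTP23*, which acts in 18S rRNA processing, read 134 and 152 in WT, 49.1 and 56.3 in isolate 1 and 51.2 and 49.2 in isolate 2. The isolates overlapped for *UTP23* and lay apart for *FYV7*. *NSR1*, the yeast nucleolin, was the most abundant of the 6 at 398 and 405 FPKM in WT, 168 and 190 in isolate 1 and 158 and 161 in isolate 2. The 6 genes kept between 23.5% and 49.3% of the WT level in an isolate.

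Partners of these factors also moved. *UTP9* belongs to the t-UTP complex, which links transcription of rRNA to its processing, and of its 6 measured partners 5 were lower in sir2Δ (limma, adjusted p under 0.05) and *UTP8* was not past the threshold (log2 change -0.38, SE 0.17, adjusted p = 0.101). The partner *UTP15* went from 90.3 FPKM in WT to 28.5 and 26.9 (-1.67, SE 0.16, adjusted p = 1.0e-04 in limma) and missed membership only through its WT level. *IMP4* and *MPP10*, which form a complex with *IMP3*, were lower as well (-1.18 and -1.40), as were *FCF1* and *ROK1*, which work with *UTP23* (-0.99 and -1.24). With no filter on low values the folds stayed as they were, but *IMP4* (adjusted p = 0.0825), *MPP10* (0.066) and the t-UTP gene *UTP4* (0.0658) missed the threshold. These partners were picked once the members were known, and members themselves were left out of every such count. The background to the partner counts here and below is 20.1% lower and 20.4% higher of all 5021 genes tested.

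The 60S group has 10 members. *RLP24* (KLLA0E09439g), *NSA2* (KLLA0E13619g), *MRT4* (KLLA0B13563g), *ALB1* (KLLA0E15093g), *BUD20* (KLLA0D05621g), *LOC1* (KLLA0E14257g) and *PWP1* (KLLA0E19515g) act in assembly or export of the particle. *ACL4* (KLLA0D16852g), *RRB1* (KLLA0F17237g) and *BCP1* (KLLA0E21429g) are dedicated chaperones that escort single ribosomal proteins of the 60S subunit. *ACL4*, the chaperone of Rpl4, was the furthest down, at 114 and 118 FPKM in WT, 41.8 and 45.0 in isolate 1 and 37.8 and 35.1 in isolate 2. *ALB1*, a shuttling protein of the exported particle, read 320 and 338 in WT, 129 and 130 in isolate 1 and 92.5 and 108 in isolate 2. For both genes the isolate 2 libraries lay under the isolate 1 libraries, but the difference did not pass for *ACL4* (log2 -0.245, adjusted p = 0.0693 in limma). *BUD20*, an export factor, had the highest WT level at 331 and 374 FPKM, then 180 and 155 in isolate 1 and 119 and 124 in isolate 2. The 10 genes kept between 30.5% (*ALB1*) and 49.5% (*MRT4*) of the WT level in an isolate. *RRB1*, the chaperone of Rpl3, changed least of all 65 genes, from a WT mean of 144 to 69.7 and 68.5.

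RNA polymerase subunits and other nucleolar members number 5. *RPA14* (KLLA0D16709g) is a subunit of RNA polymerase I, *RPC11* (KLLA0F18568g) of polymerase III and *RPO26* (KLLA0B03476g) of polymerases I, II and III. *FPR3* (KLLA0B04664g) is a nucleolar proline isomerase, and *RNH70* (KLLA0A10065g) trims the 3' end of small stable RNAs. *RPA14* read 151 and 176 FPKM in WT, 51.7 and 51.8 in isolate 1 and 55.2 and 62.6 in isolate 2. *RPC11*, the most abundant of the 5, read 354 and 377 in WT, 141 and 133 in isolate 1 and 117 and 127 in isolate 2. The group kept between 31.7% and 46.1% of WT. All 6 measured partners of *RPA14* in polymerase I were lower in the limma fit, led by *RPA34* (-1.09, SE 0.26, adjusted p = 0.0102) and *RPA49* (-1.003). The calls of *RPA135* (-0.65), *RPA190* (-0.69) and *RPO31* (-0.75) were lost when the first library of isolate 1 was dropped, at adjusted p = 0.0631, 0.06 and 0.0551. With no filter on low values these 3 (0.062, 0.0653 and 0.0575) and *RPA34* (0.0742) missed the threshold. Among 4 partners of *RPC11* in polymerase III, 3, *RPO31* among them, were lower and *RET1*, a large subunit, was not past the threshold (-0.27, adjusted p = 0.179).

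Translation itself is represented by 3 members. *RPL9B* (KLLA0F04499g), a protein of the 60S subunit, had the highest WT level of all 65, with 1458 and 1493 FPKM in WT, 330 and 316 in isolate 1 and 283 and 304 in isolate 2. It kept 21.9% and 19.9% of WT, while the other 55 tested cytosolic ribosomal protein genes had a median log2 change of -0.34. Of those 55, 7 (12.7%) were lower and 0 higher, against 20.1% lower and 20.4% higher of all 5021 genes tested. The 1407 internal genes of the same WT range outside the group held only 2 of them. *RPL28* averaged 2144 FPKM in WT and 981 and 977 in the isolates (-1.13), so it met the fall and lay above the WT ceiling. Near-identical ribosomal protein genes can share reads in Cuffnorm estimates. *LIA1* (KLLA0B14080g) makes hypusine, a modified residue of a translation factor, and read 433 and 448 in WT, 156 and 178 in isolate 1 and 172 and 198 in isolate 2. *DYS1*, the enzyme of the step before it, averaged 553 FPKM in WT and 420 and 556 in the isolates and was not past the threshold (-0.20, SE 0.19, adjusted p = 0.439 in limma). *DYS1* was called lower after quantile normalization (-0.38, adjusted p = 0.036). *TIF3* (KLLA0B10560g), initiation factor eIF4B, went from a WT mean of 191 to 89.1 and 84.0.

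Sterol and heme synthesis supply the members with the highest levels after *RPL9B*. *ERG1* (KLLA0F15224g), squalene epoxidase, stood at 1214 and 1169 FPKM in WT, 325 and 314 in isolate 1 and 316 and 323 in isolate 2. It kept 26.8% of WT in each isolate, and the 4 sir2Δ libraries lay close together. *HEM13* (KLLA0F18546g), coproporphyrinogen oxidase of heme synthesis, stood at 1314 and 1360 in WT, 319 and 341 in isolate 1 and 454 and 555 in isolate 2. *ERG2* (KLLA0F06336g), a late sterol isomerase, read 501 and 518 in WT, 216 and 201 in isolate 1 and 140 and 166 in isolate 2. The isolates stood apart for both genes, in opposite directions.

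*CYB5* (KLLA0F23672g), cytochrome b5, and *NCP1* (KLLA0D08712g), cytochrome P450 reductase, pass electrons to enzymes of the pathway. *CYB5* averaged 1024 FPKM in WT, 507 in isolate 1 and 449 in isolate 2. *NCP1* averaged 297, 133 and 123. *HMG1* (KLLA0B04642g), HMG-CoA reductase and the controlled step of the mevalonate section, read 346 and 336 in WT, 144 and 159 in isolate 1 and 168 and 150.3 in isolate 2. All 3 kept between 41.6% and 49.6% of WT.

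The rest of the sterol list was measured in 21 genes, of which 9 (42.9%) were lower in sir2Δ and 0 higher, with a median log2 change of -0.37. Over all genes tested 20.1% were lower and 20.4% higher. *ERG3* averaged 1544 FPKM in WT, 498 in isolate 1 and 571 in isolate 2 (-1.53, SE 0.16, adjusted p = 0.000181 in limma), and *ERG11*, lanosterol demethylase, 1705, 602 and 615 (-1.49). Both met the fall and were left out only by the WT ceiling. *ERG25* (-1.06), *ERG10* (-1.03), *IDI1* (-0.97), *ERG20* (-0.70), *ERG5* (-0.65), *ERG7* (-0.44) and *ERG6* (-0.44) were the others past the threshold. The *ERG7* call (adjusted p = 0.0485) was lost in 9 alternatives, at adjusted p between 0.0503 and 0.109, and the *ERG6* call (0.0435) in 4, between 0.0515 and 0.124. After quantile normalization *ERG13* (-0.46), *ERG24* (-0.42) and *ERG28* (-0.62) were called lower as well, and *ERG28* also after median scaling (-0.40). Genes of the same pathway that did not pass included *ERG9*, squalene synthase (-0.01), *MVD1* (0.03), *ERG4* (-0.08) and *ERG26* (0.16), and the pathway's regulator *UPC2* averaged 134 FPKM in WT and 114 in each isolate (-0.23).

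**Figure D2:**
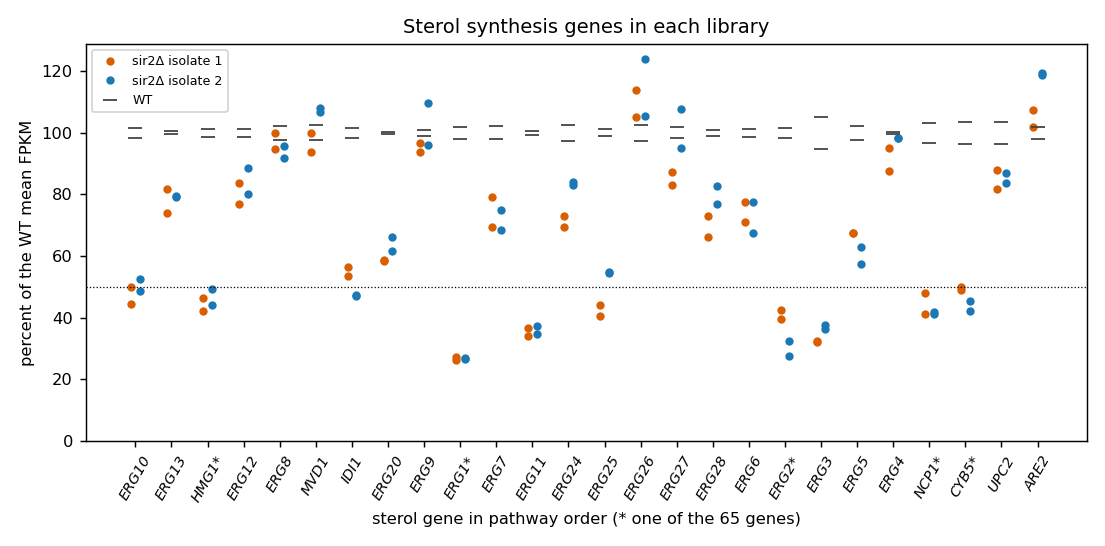
Level of 26 sterol synthesis genes in each library as a percent of the WT mean FPKM, in pathway order, with stars on the 5 members. *ERG1*, *ERG2*, *ERG3* and *ERG11* lie lowest, while *ERG9*, *MVD1*, *ERG26* and *ERG4* lie near the WT dashes.

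Other heme genes did not share the level of change of *HEM13*. Of 7 measured, 3 were lower and 0 higher in the limma fit: *HEM14* (-0.67, SE 0.16, adjusted p = 0.011), *HEM4* (-0.51) and *HEM1* (-0.44). *HEM2* (0.0018), *HEM3* (0.16), *HEM15* (0.09) and *HEM12* (0.38) did not pass. The *HEM1* call was lost on dropping the first WT library (adjusted p = 0.0553), the first of isolate 1 (0.101) or the second of isolate 2 (0.132). The *HEM4* call was lost on dropping the second library of isolate 1 (0.0838) or the first of isolate 2 (0.0599). With no filter on low values none of the 3 passed (*HEM14* 0.0537, *HEM1* 0.0665 and *HEM4* 0.0796), and without a trend *HEM1* (0.0681) and *HEM4* (0.0502) did not. *HEM12* was called higher once the first library of isolate 1 was dropped (0.42, adjusted p = 0.0419) and after median scaling (0.39, adjusted p = 0.0413). Whether *HEM2* lay above or below WT changed with the setting.

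Fatty acid and phospholipid genes are *FAT3* (KLLA0B02607g), linked to fatty acid uptake, *CLD1* (KLLA0B12914g), the cardiolipin deacylase, and *FAS1* (KLLA0B02717g), the beta subunit of fatty acid synthase. *FAT3* read 738 and 731 FPKM in WT, 220.0 and 262 in isolate 1 and 242 and 244 in isolate 2. *CLD1* averaged 430 in WT, 170 in isolate 1 and 175 in isolate 2. *FAS1* read 414 and 396 in WT, 154 and 217 in isolate 1 and 208 and 177 in isolate 2, with wide gaps between technical libraries. Its partner subunit *FAS2* averaged 243 FPKM in WT and 173 and 218 in the isolates and did not pass (-0.32, SE 0.17, adjusted p = 0.168 in limma), nor did *ACC1*, acetyl-CoA carboxylase (-0.25). After quantile normalization *FAS2* was called lower (-0.41, adjusted p = 0.0204). *OLE1*, the fatty acid desaturase, was lower (-0.77, adjusted p = 0.00837).

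The transport group was led by *PDR12* (KLLA0B09702g), a weak acid exporter, at 119 and 140 FPKM in WT, 23.7 and 24.5 in isolate 1 and 23.8 and 20.0 in isolate 2. At 18.7% and 17.0% of WT it was the lowest of the members with a symbol. *TPN1* (KLLA0D05060g), the vitamin B6 transporter, had the highest WT level of the 4 and averaged 164 in WT, 72.4 in isolate 1 and 81.0 in isolate 2. *PET8* (KLLA0D04950g), the mitochondrial carrier of S-adenosylmethionine, averaged 112, 48.0 and 55.5. *ECM3* (KLLA0C13607g), a membrane protein, averaged 111, 40.6 and 45.9.

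Members of the cell wall and secretory group were *STE23* (KLLA0E05105g), *ARF3* (KLLA0C13563g), *KRE9* (KLLA0A06468g), *NCW1* (KLLA0F17589g), *KAR2* (KLLA0D09559g) and *ADD37* (KLLA0D08954g). *STE23*, a metalloprotease that can process a-factor, read 382 and 380 FPKM in WT, 86.4 and 102 in isolate 1 and 140 and 130.1 in isolate 2. *ARF3*, a small GTPase, had the highest WT level of the 6 and read 574 and 622 in WT, 190 and 178 in isolate 1 and 206 and 198 in isolate 2. Isolate 1 read lower in both, but the difference between isolates did not pass for *ARF3* (log2 0.13, adjusted p = 0.335 in limma). *KRE9*, needed for beta-1,6-glucan of the wall, averaged 218 in WT, 84.1 in isolate 1 and 58.1 in isolate 2. *KAR2*, the Hsp70 of the endoplasmic reticulum, averaged 203 in WT, 97.4 in isolate 1 and 82.5 in isolate 2. The 6 genes kept between 24.7% (*STE23*) and 48.2% (*ADD37*) of WT in an isolate. Of 5 genes that work with *KAR2*, *SCJ1* (-0.75) and *LHS1* (-0.44) were lower, and *PDI1* (-0.31), *SIL1* (-0.24) and *SEC63* (0.10) did not pass. The *LHS1* call was lost on dropping the second library of either isolate (adjusted p = 0.125 for isolate 1 and 0.0929 for isolate 2), with no filter (0.0857) and without a trend (0.0666). After quantile normalization *PDI1* was called lower (-0.49, adjusted p = 0.00497).

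In small-molecule metabolism the members were *AAH1* (KLLA0E23167g), adenine deaminase, *SHB17* (KLLA0E14961g), sedoheptulose bisphosphatase, and *HIS6* (KLLA0D16148g) of histidine synthesis. *AAH1* read 425 and 442 FPKM in WT, 156 and 160.2 in isolate 1 and 161.5 and 157.3 in isolate 2. *SHB17* read 735 and 716 in WT, 285 and 269 in isolate 1 and 334 and 336 in isolate 2. *HIS6* averaged 233 FPKM in WT, 101.4 in isolate 1 and 93.5 in isolate 2. Its pathway moved unequally: *HIS1* was lower (-1.05, SE 0.15, adjusted p = 0.000835 in limma), *HIS4* was higher (0.51, adjusted p = 0.035), and *HIS2*, *HIS3*, *HIS5* and *HIS7* did not pass. *HIS1* met the values of the rule and lies among the 30 genes at a chromosome end. The *HIS4* call was lost on dropping the second library of isolate 1 (adjusted p = 0.104), with no filter (0.0675) and without a trend (0.0612).

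Signalling, chromatin and transcription gave *PCL1* (KLLA0E13223g), *GPR1* (KLLA0F24750g), *ASF1* (KLLA0E14895g), *ASG1* (KLLA0F04609g) and *ATC1* (KLLA0D18326g). *PCL1*, a cyclin of the Pho85 kinase, read 157 and 156 FPKM in WT, 58.8 and 51.9 in isolate 1 and 35.6 and 29.9 in isolate 2. *ATC1* read 106 and 126 in WT, 47.9 and 47.5 in isolate 1 and 31.7 and 24.4 in isolate 2. The isolate 2 libraries were the lowest for both. *ASF1*, a histone chaperone, had the highest WT level of the 5 and read 233 and 238 in WT, 77.7 and 77.3 in isolate 1 and 91.9 and 80.6 in isolate 2. *GPR1*, the glucose-sensing receptor, averaged 116, 50.1 and 52.8, and *ASG1*, a zinc cluster regulator, 109, 47.3 and 48.5. Partners of *PCL1* and *GPR1* did not pass the test. *PHO85* averaged 107 FPKM in WT and 109 and 110 in the isolates (0.03, adjusted p = 0.891 in limma), and *GPA2*, the G protein of *GPR1*, 133, 136 and 137 (0.04, adjusted p = 0.841). Of 4 genes that work with *ASF1*, *HIR2* was lower (-0.62, SE 0.17, adjusted p = 0.0201), a call lost with no filter on low values (0.063). *HIR1* (-0.23), *HIR3* (-0.27) and *RTT109* (0.44, adjusted p = 0.0672) did not pass, and *RTT109* was called higher after quantile normalization (0.0266) and on dropping the first WT library (0.048).

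The 14 members with no symbol had WT means of 109 to 488 FPKM and coding spans of 351 to 2241 nt, and no role is given to them. KLLA0E14477g had the largest fall of all 65 genes, with 343 and 212 FPKM in WT, 38.6 and 46.4 in isolate 1 and 46.2 and 45.5 in isolate 2. Its WT libraries differed from each other by 0.69 on the log2 scale, the widest WT gap among members. KLLA0E05897g read 177 and 132 in WT, 34.7 and 44.0 in isolate 1 and 34.5 and 38.2 in isolate 2. KLLA0D11088g, the most abundant of the 14, averaged 488 in WT, 172 in isolate 1 and 180.2 in isolate 2. The others were KLLA0E03829g, KLLA0D02442g, KLLA0B07447g, KLLA0E16237g, KLLA0E12431g, KLLA0C12023g, KLLA0C05302g, KLLA0C04928g, KLLA0E14015g, KLLA0E09813g and KLLA0D03388g, which kept between 28.0% and 49.8% of WT.

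**Figure D3:**
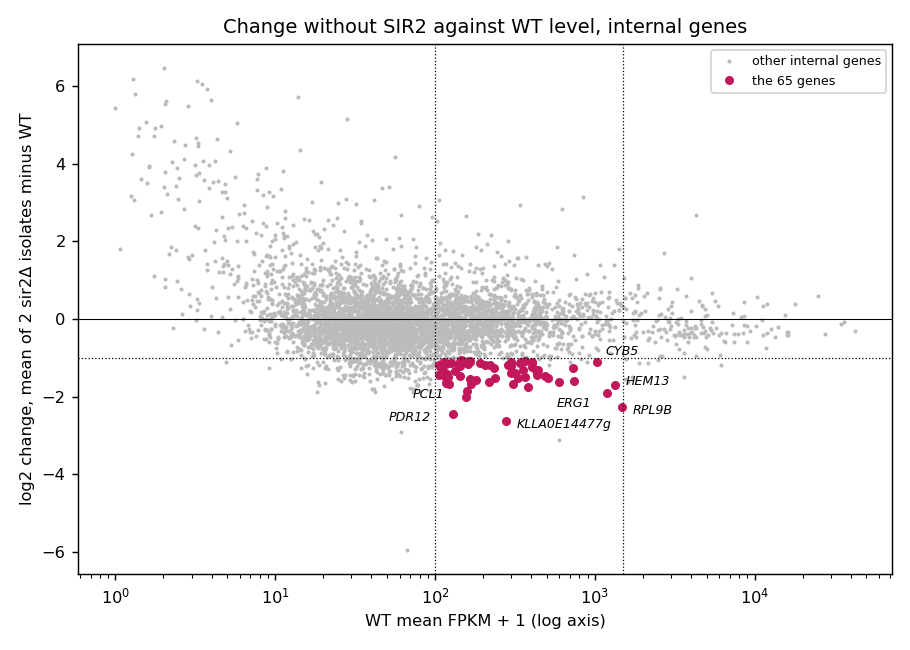
Log2 change of internal genes (mean of the sir2Δ isolates minus WT, y axis) against WT mean FPKM + 1 (log x axis), with the 65 genes as large points. Dotted lines mark 100 and 1500 FPKM in WT and a mean log2 change of -1. The rule asks for -1 or less in each isolate, so genes such as *DUT1* (-1.158) lie within the lines and are not members. KLLA0E14477g, *PDR12* and *RPL9B* lie lowest among the members, at -2.62, -2.44 and -2.26.

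The edges of the rule were not empty. Just above the WT floor stood *UTP9* (105 FPKM), *IMP3* (105) and *RNH70* (107), and just below it the nucleolar gene *EBP2* (99.7), *ZPR1* (96.2) and the exosome gene *RRP46* (94.8), each with the same fall. Under the ceiling were *RPL9B*, *HEM13* and *ERG1*, and above it *ERG3*, KLLA0F23606g (1616) and *ERG11*. The weaker of the 2 log2 changes was -1.003 for KLLA0C04928g, -1.004 for *PET8* and -1.006 for *IMP3* inside the rule, and -0.98 for *ERG10*, *DUT1* and *SRP40* outside it.

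How far the isolates differed from each other was not part of the rule, which bounds each isolate's level and leaves their difference free within it. In limma on the 6 libraries, 12 of the 65 genes (18.5%) were lower and 3 (4.62%) higher in isolate 2 than in isolate 1, while 50 did not pass. Over all 5021 genes tested the shares were 10.8% and 7.89%, and over the 1407 internal genes of the same WT range outside the group 4.48% and 10.4%. The median difference was -0.09 on the log2 scale for the members, 0.01 for all genes and 0.06 for the genes of the same WT range. These p-values rest on technical libraries and measure no spread between cultures.

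All 16 ribosome assembly members were lower in isolate 2 by sign, and 6 of them passed, against 25 of 49 by sign and 6 past the threshold among the other members and 2451 of 5021 genes (48.8%) by sign overall. Assembly genes outside the group did likewise: 39 of 65 of the 40S list and 44 of 81 of the 60S list were lower in isolate 2 and 0 higher, with median differences of -0.40 and -0.35. *IMP3*, of the 40S processome, read 104 and 106 FPKM in WT, 56.3 and 47.3 in isolate 1 and 26.5 and 30.3 in isolate 2, a difference between isolates of -0.84 (SE 0.10, adjusted p = 0.000186). *FYV7* differed by -0.75 (SE 0.13, adjusted p = 0.0017), *BUD20* by -0.46, *ALB1* by -0.37, *RLP24* by -0.36 and *MRT4* by -0.27. The counts by sign come from 1 pair of isolates and carry no test. Among the assembly members only the *IMP3* call held whichever library was left out. Outside that group *ATC1* (-0.75, SE 0.12, adjusted p = 0.00075), *PCL1* (-0.74, SE 0.10, adjusted p = 0.000351), KLLA0E12431g (-0.57), *KRE9* (-0.53), *ERG2* (-0.45) and KLLA0E03829g (-0.29) were lower in isolate 2. KLLA0E12431g averaged 315 FPKM in WT, 146 in isolate 1 and 98.4 in isolate 2.

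*HEM13* (0.60, SE 0.10, adjusted p = 0.00136), *STE23* (0.52, SE 0.10, adjusted p = 0.00241) and *SHB17* (0.27, SE 0.09, adjusted p = 0.0415) were higher in isolate 2. KLLA0C04928g (0.29) and *PET8* (0.21) come next and did not pass. The calls of *IMP3*, *ATC1*, *PCL1*, KLLA0E12431g, *KRE9*, *STE23* and *HEM13* stood in all 6 fits that leave out 1 library, and the other 8 calls missed the threshold in at least 1 of them. The number of lower calls was 6 when the first library of either isolate was dropped and 7 when the second of isolate 2 was. *SHB17* also missed the threshold after median scaling (0.24, adjusted p = 0.0606) and quantile normalization (0.18, adjusted p = 0.137).

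**Figure D4:**
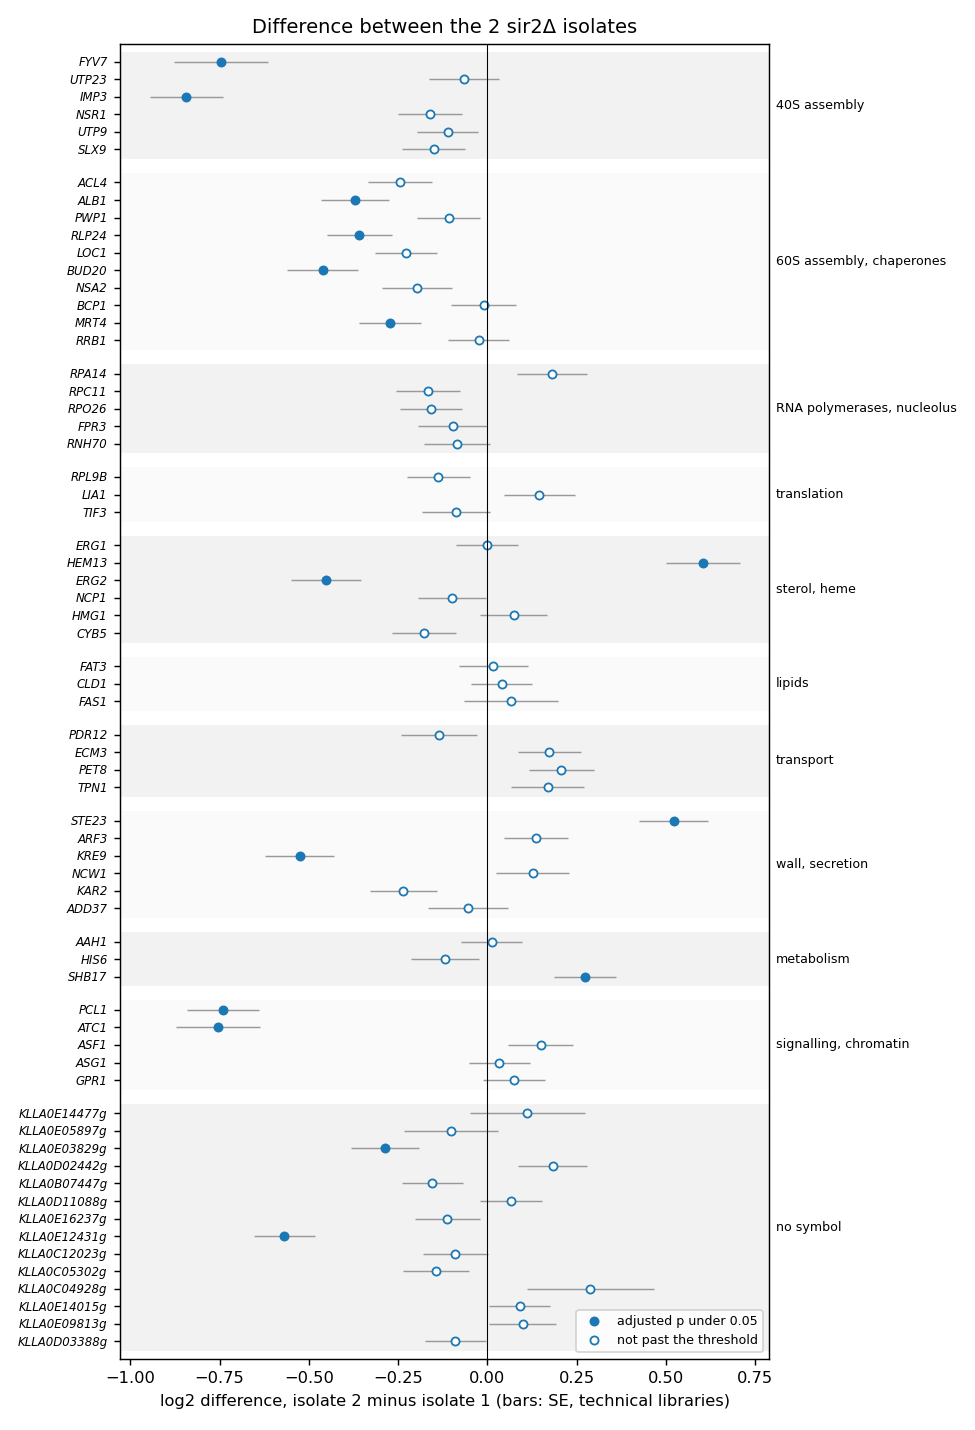
Log2 difference between isolate 2 and isolate 1 for each of the 65 genes, with bars of 1 SE from 2 technical libraries per strain and filled points for an adjusted p under 0.05 in limma. The 16 assembly genes lie left of 0, and *HEM13*, *STE23* and *SHB17* are the filled points on the right.

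The pathways of the members were followed in 16 gene lists matched by symbol, with the members taken out. In the list of the small subunit processome and 40S assembly, 64 of 65 other genes (98.5%) were lower in sir2Δ and 0 higher, with a median log2 change of -1.21. Its lowest gene was *FAF1*, from 60.2 FPKM to 7.72 and 6.56 (-2.91, SE 0.21, adjusted p = 1.95e-05 in limma). In 60S assembly and export 72 of 81 (88.9%) were lower and 0 higher (median -0.99), from *RCM1*, an rRNA methyltransferase (-1.89), to *JJJ1* (0.33), which did not pass. The background was 20.1% lower and 20.4% higher, with a median of -0.06 over all genes tested. Taking out members removes the well-expressed genes that were 2-fold lower, so these counts leave out the members' own falls.

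Lists of RNA work without or with few members had a larger share of lower calls than all genes. Of tRNA modification and processing genes 41 of 56 were lower and 0 higher (median -0.86), with *TRM44* lowest (-1.80). Of RNA polymerase I and III genes 23 of 36 were lower and 2 higher (median -0.73), from *RPC25* (-1.28) to *TFC6* (0.56). The exosome and RNA export list had 11 of 19 lower and 0 higher (median -0.70), with *RRP4* lowest (-1.40) and *MEX67* highest without passing (0.22). The snoRNP and rRNA modification list had 14 of 23 lower and 1 higher (median -0.58), from *HIT1* (-1.38) to *SHQ1* (0.81). With no filter on low values the lower calls in these 4 lists were 27, 15, 7 and 9, against 637 of all genes. The *TFC6* call was lost on dropping the first library of isolate 2 (adjusted p = 0.0596) and with no filter (0.0772).

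The share of lower calls in the remaining lists stood nearer that of all genes (20.1%). For higher calls several lists lay apart from all genes (20.4%). Sterol synthesis, chaperones, translation factors, aminoacyl-tRNA synthetases, cytosolic ribosomal proteins and mitochondrial translation had 0 higher. Chaperones of cytosolic folding had 12 of 31 lower and 0 higher (*CNS1* -1.21 to *YDJ1* 0.22), and translation factors 11 of 33 and 0 (*PRT1* -1.08 to *CAM1* 0.36). Nuclear transport had 11 of 44 lower and 1 higher (*NUP49* -0.75 to *KAP120* 0.54), and aminoacyl-tRNA synthetases 4 of 19 and 0 (*CDC60* -0.99 to *TYS1* 0.25). Mitochondrial translation had 13 of 73 lower and 0 higher (*RSM22* -0.96 to *MRPS5* 0.44), and cytosolic ribosomal proteins ran from *RPL28* (-1.13) to *RPP2A* (0.20). Both directions appeared in purine, pyrimidine and one-carbon synthesis, with 7 of 40 lower and 2 higher (*MIS1* -1.62 to *GCV1* 0.72). The same held for serine, glycine, methionine and polyamine synthesis, with 5 of 27 lower and 5 higher (*SER2* -1.86 to *MET14* 3.28). The cell wall, glycosylation and secretion list had 5 of 42 lower and 6 higher (*ALG5* -0.86 to *EXG1* 1.18). *NUP49* (adjusted p = 0.065) and *KAP120* (0.064) missed the threshold with no filter, and *MRPS5* (0.0508) passed in several alternatives, among them median scaling (0.0222). Lower ribosomal protein genes numbered 11 when the first library of isolate 1 was dropped and 3 when that of isolate 2 was. Lower mitochondrial translation genes numbered 6 when the second library of isolate 1 was dropped and 8 when that of isolate 2 was.

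**Figure D5:**
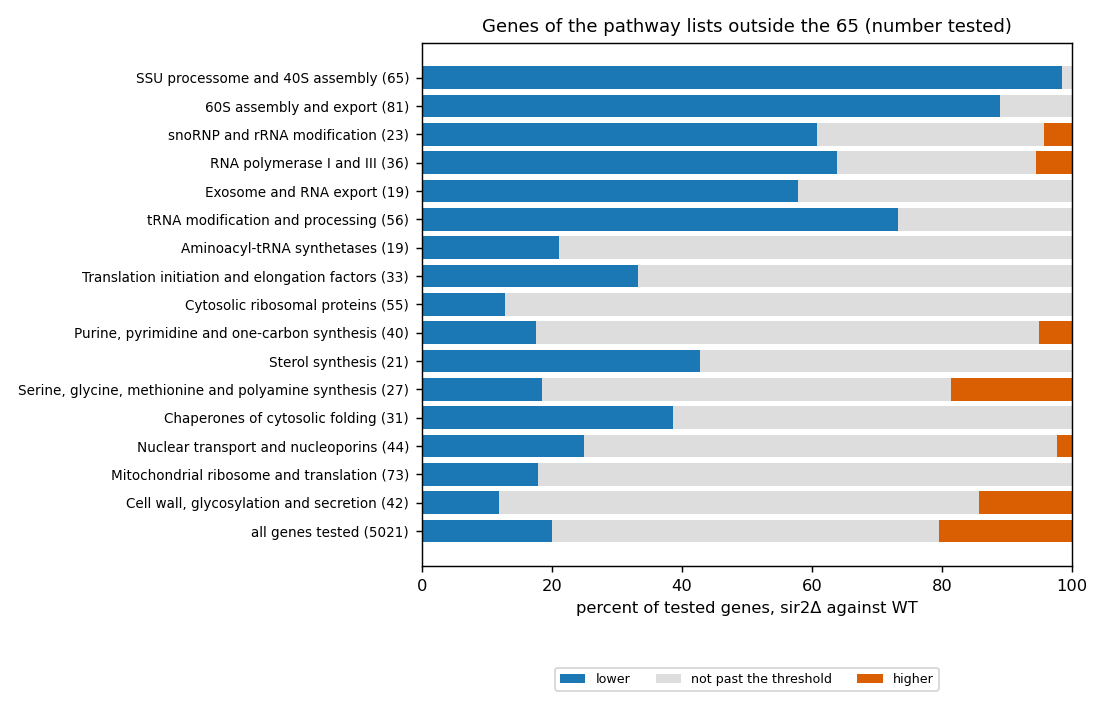
Percent of tested genes of each list that were lower, higher or not past an adjusted p of 0.05 in sir2Δ against WT (limma), members left out, with the number tested in brackets. The 40S list is lower in 98.5% of its genes and the 60S list in 88.9%, against 20.1% of all genes.

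Set beside genes of the same WT range outside the group, the members held larger shares of some pathways. Beside less expressed genes with the same fall, their share of assembly genes was smaller. Over all 5076 genes the assembly lists below made up 4.39% and the sterol list 0.512%. The 4 lists of 40S and 60S assembly, snoRNPs and RNA polymerases I and III together held 19 of the 65 members (29.2%), 42 of the 1407 genes of the same WT range (2.99%), and 52 of 114 internal genes that had a WT mean of 10 to under 100 FPKM and the same fall (45.6%). Sterol genes were 5 of 65 members (7.69%), 16 of the 1407 (1.14%) and 0 of the 114. Of the sterol list only *ERG7* and *ERG27* had a WT mean under 100 FPKM, so few could have been among the 114. Genes of mitochondrial translation were 0 of 65 and 67 of the 1407. The median coding span was 849 nt for the members, 909 nt for the same WT range and 1420 nt for the 114 less expressed genes. *RPC11* was the shortest member at 339 nt and *FAS1* the longest at 6144 nt. These shares describe genes chosen by their values and carry no test.

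Members lay on all 6 chromosomes, with 2 on A, 12 on B, 7 on C, 15 on D, 19 on E and 10 on F, or from 1.40% (A) to 6.78% (B) of the eligible genes in the WT range. Only *HMG1* with *FPR3* and *HEM13* with *RPC11* were next to each other in gene order, and *ARF3* and *ECM3* were parted by 1 gene, *CMR2* (-1.11). *HEM13* differed between isolates by 0.60 and its neighbour *RPC11* by -0.17. Among the 125 other direct neighbours tested, 30 (24.0%) were lower and 18 (14.4%) higher in sir2Δ, with a median log2 change of -0.24, against 20.1% and 20.4% of all genes. No member's annotated span overlapped that of another gene, but the library kit does not keep the strand and untranslated ends are not in the annotation used.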

How the data were processed

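Total RNA was extracted with hot phenol, and unstranded TruSeq libraries were read from 1 end for 50 bp, per the labels' protocols. The authors deposited FPKM values, 1 per gene and library. The submitters' processing notes name TopHat2 2.0.10 and Cuffnorm 2.2.1. Neither build nor annotation nor scaling is given in the sources used here. Read depth is unknown. All 5076 IDs matched RefSeq assembly ASM251v1, which gave symbols (3959 genes), spans and gene order only.

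The members, roles, lists and partners were chosen with earlier results of these data known. Values were tested in limma 3.58.1 (R 4.3.3) as log2(FPKM + 1), which understates changes of low genes, with an intensity trend, on 5021 genes whose mean over strains reached 1 FPKM (55 left out, no member among them). Benjamini-Hochberg adjustment ran over all genes tested, with a two-sided threshold of 0.05. Sir2Δ was compared with WT on the log2 of 3 strain means (1 residual degree of freedom, prior 7.46), and the isolates on 6 libraries in 3 groups (3 residual, prior 11.4). WT is assumed to vary like the isolates. Both fits were tried on simulated data, with no culture difference in the isolate fit and an equal culture spread in every strain in the WT fit. The simulation therefore could not check that assumption on WT. Values are given for the 2 largest falls and highest WT level of each role, the extremes between isolates, the edges of the rule, the lowest and highest gene of each list, and further members chosen after their values were seen. Promoter sequences were not analysed here.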

Additional observations from a re-analysis of the deposited data

Results flagged for a closer look

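For 15 of the 65 genes the level differed between the sir2Δ isolates, by limma's test of isolate 2 minus isolate 1 on the log2 scale. The isolates share the same WT libraries, and the test rests on technical libraries, so it does not show a difference between independent cultures. Lower in isolate 2 were *IMP3* (-0.84), *ATC1* (-0.75), *FYV7* (-0.75), *PCL1* (-0.74), KLLA0E12431g (-0.57), *KRE9* (-0.53), *BUD20* (-0.46), *ERG2* (-0.45), *ALB1* (-0.37), *RLP24* (-0.36), KLLA0E03829g (-0.29) and *MRT4* (-0.27). Higher were *SHB17* (0.27), *STE23* (0.52) and *HEM13* (0.60). The 15 calls are 23.1% of the members, against 18.7% of all genes tested, and 7 of the 15 held in all 6 fits without 1 library.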

How the results depend on the processing

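Settings moved both the lists and the group. With a log2 threshold of -0.9 in place of -1 the rule picked 88 genes, and with -1.1 it picked 46. The rule picked 60 genes after median scaling (60 of them among the 65), 77 after quantile normalization (62), 54 with a pseudocount of 10 (54) and 62 to 71 with 1 library left out (57 to 64), and 49 met it in every single library. Without a filter on low values, all lower calls against WT numbered 637 and higher calls among list genes 9. Lower calls were then 9 for snoRNPs, 15 for RNA polymerases I and III (0 higher), 7 for the exosome, 27 for tRNA modification, 7 for translation factors, 3 for ribosomal proteins, 6 for nuclear transport (0 higher) and 5 for mitochondrial translation, and higher calls 1 for purines and 3 for serine and methionine. Without a trend mitochondrial translation had 6 lower calls, and median scaling or a pseudocount of 10 gave it 1 higher call. Quantile normalization gave lower calls of 8 for synthetases, 17 for translation factors, 13 for ribosomal proteins, 15 for purines, 10 for serine and methionine, 17 for nuclear transport (2 higher), 36 for mitochondrial translation (1 higher) and 12 for the cell wall, and 1 higher for tRNA modification. The causes were not tested.

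Replicate numbers share only a number (correlations of deviations 0.005177, 0.05488 and 0.206). With the replicate block, which fits 6 technical libraries, members lower and higher in isolate 2 numbered 13 and 3, all lower calls against WT 1675 and higher calls among list genes 41. Lower and higher calls were then 10 and 1 for synthetases, 15 and 9 for purines, 8 and 8 for serine and methionine, 24 and 3 for nuclear transport, and 36 and 4 for mitochondrial translation. Lower calls were 28 for ribosomal proteins, 14 for sterols, 20 for chaperones and 13 for the cell wall, and higher calls 2 each for tRNA modification and translation factors. The block also called *UTP8*, *RET1*, *PDI1*, *SIL1*, *ERG12*, *ERG13*, *ERG24*, *ERG28* and *UPC2* lower and *HEM12*, *RTT109*, *CAM1*, *TYS1*, *PUS5* and *MRPS5* higher.

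With 1 library left out, members lower in isolate 2 ranged from 6 to 10, all calls between isolates from 232 to 918, lower ribosomal protein genes from 3 to 11 and lower mitochondrial genes from 6 to 19. Higher calls ranged from 0 to 2 for RNA polymerases I and III, 1 to 2 for purines, and 0 to 1 for tRNA modification and mitochondrial translation. Values near 0 changed sign. *HEM2* was -0.0014 with logs averaged (chosen after seeing the data) or the replicate block and -0.06 after quantile normalization. *ERG9* was 0.0039 after median scaling and *MVD1* -0.04 after quantile normalization. With 1 library left out, *ERG9* ranged from -0.06 to 0.03, *MVD1* from -0.0066 to 0.06, *HEM2* from -0.06 to 0.06, *PHO85* from -0.02 to 0.08, *HIS3* from -0.04 to 0.18, *GPA2* from -0.02 to 0.10 and KLLA0C04928g, between isolates, from -0.01 to 0.59. A planned search of promoter windows was not run. Depth is unknown, so no counting error is given.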
